A study of Mus musculus with 16 samples.

Results

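MiR-451, miR-144-3p and miR-486-5p are microRNAs (miRNAs) known from red blood cells, and their levels were followed in mouse lungs across allergic airways disease and its treatment with dexamethasone. They were chosen by name among the 611 mouse miRNAs of the array, with earlier results of these data known. The choice took any listing of miR-451, of either arm of miR-144 or of miR-486, or of mmu-miR-3107-5p. The last is the name under which the array lists the miR-486-5p probes. Of these listings 3 were present, namely mmu-miR-451, mmu-miR-144-3p and mmu-miR-3107-5p. All 3 were detected on all 16 arrays and were among the 266 miRNAs tested for differences between groups.

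MiRNAs are short RNAs that guide Argonaute proteins to messenger RNAs and lower the output of their targets, which are recognised mainly through the seed at the 5′ end of the miRNA. MiR-144 and miR-451 are cut from one primary transcript that the erythroid transcription factor GATA1 switches on as red cell precursors mature, and mature red cells, which have no nucleus, still carry large amounts of miR-451. MiR-451 is unusual in that Argonaute 2 and not Dicer cuts its short hairpin, so that its mature sequence runs from the stem into the loop. MiR-486 comes from an intron of Ank1, the gene of an ankyrin of the red cell membrane skeleton, and is also made in striated muscle. A whole lung holds blood in its vessels, so that these miRNAs in lung RNA may come from blood as well as from lung tissue.

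The sequences of miR-451 and miR-144-3p are shown because they differ in their seeds although they come from one transcript. Both were taken from RefSeq (mouse assembly GRCm38.p6), and 2 of the 3 miRNAs were matched in this table. Capitals mark the seed, bases 2 to 8.
mmu-miR-451a: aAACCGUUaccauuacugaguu
mmu-miR-144-3p: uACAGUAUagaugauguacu
No other mature mouse miRNA of the table (0 of 1738) carried bases 2 to 8 of either one. Bases 2 to 7 of miR-144-3p were shared by 1 other, miR-101a-3p.

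The hairpins are shown because they place the pair in the genome and show the mature miR-451 crossing into its loop. Capitals mark the mature miRNA. The Mir144 hairpin lies at chr11:78073005-78073070 and the Mir451a hairpin at chr11:78073170-78073241 of GRCm38.p6, both on the plus strand, with 99 bases between them.
Mir144 hairpin: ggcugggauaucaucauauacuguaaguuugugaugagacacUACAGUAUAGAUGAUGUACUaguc
Mir451a hairpin: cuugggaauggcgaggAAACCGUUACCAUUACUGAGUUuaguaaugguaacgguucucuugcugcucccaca
Bases 17 to 38 of the Mir451a hairpin and bases 43 to 62 of the Mir144 hairpin are the mature miRNAs. Mir486 lies on another chromosome, chromosome 8, within the span of Ank1, and the annotation places Mir3107 inside Mir486.

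BALB/c mice aged 8 to 12 weeks were compared in 4 groups, which are named by what was injected on day 0 and by what was then given into the nose on days 12 to 15. PBS/PBS mice (2 arrays) and PBS/OVA mice (4 arrays) received 1 mg of the adjuvant Alhydrogel alone, and OVA/OVA mice (6 arrays) and OVA/OVA DEX mice (4 arrays) received it with 50 μg of ovalbumin (OVA), the egg white protein that served as allergen. All but the PBS/PBS mice, which were given PBS, were then challenged with 10 μg OVA, and OVA/OVA DEX mice were also injected with dexamethasone (DEX), a synthetic glucocorticoid, at 3 mg/kg on day 11 and on alternate days after that. Whole lungs were taken 24 hours after the last challenge. The methods text describes OVA challenge of all mice, whereas the labels give PBS for PBS/PBS, and the labels were followed. The labels number replicates without naming animals, so that p-values measure the spread between these samples, which may in part be technical. Whether blood was flushed out of the lungs is not given in the sources used here.

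Arrays differed in brightness. The unscaled signal summed over all 611 miRNAs reached 795089 and 942144 on the PBS/PBS arrays. It ranged from 494814 to 720095 for PBS/OVA, from 501545 to 640549 with dexamethasone and from 253333 to 734606 for OVA/OVA, which held the dimmest arrays. Between 224 and 301 miRNAs were detected per array. Both PBS/PBS arrays lay on slide 1, while the other groups were spread over both slides. Feature Extraction marked 1 array, OVA/OVA DEX replicate 4, for evaluation, and it found no saturated miRNA spot on any array. Values are given as log2 scaled signals, which are the summed probe signals of a miRNA divided by a 75th percentile of the array. One unit is a 2-fold change. Signals of different miRNAs are not on a common scale, so that levels were compared between arrays and not between miRNAs. Sums over lists of miRNAs and shares of the summed signal are weighted toward the brightest miRNAs.

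MiR-451, which supports late red cell maturation, had log2 scaled signals of 16.19 and 16.06 in PBS/PBS and of 16.25, 15.47, 16.31 and 16.16 in PBS/OVA. In OVA/OVA the lowest, median and highest arrays were at 15.07, 15.71 and 16.03. In OVA/OVA DEX the arrays were at 16.95, 16.58, 16.63 and 16.51. Every OVA/OVA DEX array was above every array of the other 3 groups, and every OVA/OVA array was below both PBS/PBS arrays. PBS/OVA replicate 2, at 15.47, lay among the OVA/OVA arrays and apart from the other PBS/OVA arrays. The group means were 16.13 ± 0.0946 (SD, n = 2), 16.05 ± 0.392 (SD, n = 4), 15.63 ± 0.351 (SD, n = 6) and 16.67 ± 0.194 (SD, n = 4) in the order PBS/PBS, then PBS/OVA, then OVA/OVA, then OVA/OVA DEX.

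MiR-144-3p, the other product of that transcript, had log2 scaled signals of 12.20 and 12.18 in PBS/PBS and of 12.29, 11.38, 12.57 and 12.24 in PBS/OVA. In OVA/OVA the lowest, median and highest arrays were at 11.40, 11.79 and 11.95, and in OVA/OVA DEX the arrays were at 13.25, 12.61, 12.62 and 12.74. All OVA/OVA DEX arrays were again the highest, although the margin over PBS/OVA replicate 3 was only 0.04. The lowest array of all was PBS/OVA replicate 2. The means were 12.19 ± 0.0137 (SD, n = 2), 12.12 ± 0.513 (SD, n = 4), 11.75 ± 0.213 (SD, n = 6) and 12.80 ± 0.305 (SD, n = 4) in the same order of groups.

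MiR-486-5p, which comes from another chromosome, had log2 scaled signals of 8.94 and 8.81 in PBS/PBS and of 8.79, 8.24, 9.12 and 8.88 in PBS/OVA. In OVA/OVA the lowest, median and highest arrays were at 8.003, 8.36 and 8.56, and in OVA/OVA DEX the arrays were at 9.82, 9.30, 9.36 and 8.97. OVA/OVA DEX replicate 4, the array marked for evaluation, was the lowest of its group at 8.97 and fell below PBS/OVA replicate 3. The other OVA/OVA DEX arrays were above all arrays of the other groups. The means were 8.87 ± 0.0872 (SD, n = 2), 8.76 ± 0.375 (SD, n = 4), 8.31 ± 0.211 (SD, n = 6) and 9.36 ± 0.351 (SD, n = 4).

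**Figure D1:**
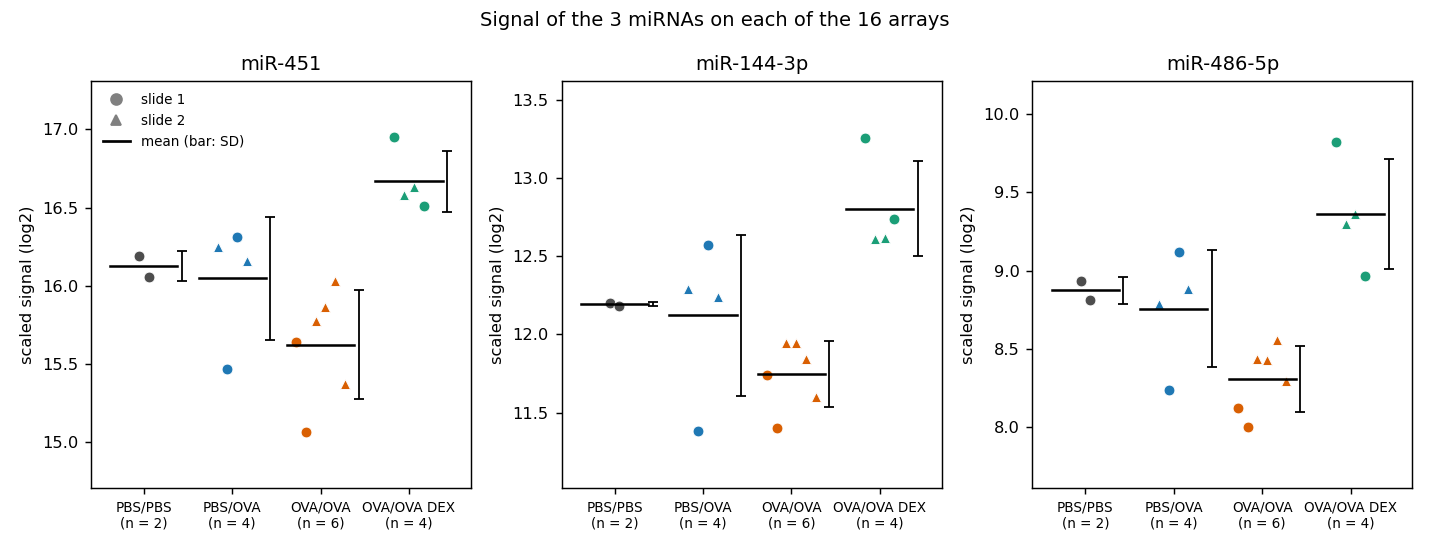
Log2 scaled signal of miR-451, miR-144-3p and miR-486-5p on each array, with 1 point per array, the marker giving the slide, horizontal lines the group means and bars the SD. For each of the 3 miRNAs the OVA/OVA mean was the lowest and the OVA/OVA DEX mean the highest, and the arrays of these groups did not overlap.

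The order of the group means was thus the same for each of the 3 miRNAs, from OVA/OVA through PBS/OVA and PBS/PBS to OVA/OVA DEX. None of the neighbours in that order differed by the test below. The ends of the order, OVA/OVA and OVA/OVA DEX, did.

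The comparison of OVA/OVA with OVA/OVA DEX asks which miRNAs respond to the steroid in allergic lungs. All 3 miRNAs were lower without dexamethasone, by 2.06-fold for miR-451, 2.08-fold for miR-144-3p and 2.08-fold for miR-486-5p. The log2 difference of miR-451 was -1.04 (SE 0.196, limma adjusted p = 0.000903), that of miR-144-3p was -1.06 (SE 0.203, adjusted p = 0.001) and that of miR-486-5p was -1.06 (SE 0.181, adjusted p = 0.00052). With an adjusted p under 0.05 and at least a 2-fold change as the rule for a call, 3 of 3 were called, while 3.38% of all miRNAs tested (9 of 266) were called lower in OVA/OVA. The median difference over all 266 miRNAs was -0.09. Ranked from the lowest difference of all miRNAs tested, miR-144-3p was at rank 7, miR-486-5p at rank 8 and miR-451 at rank 9. The arrays did not overlap for any of the 3, with gaps of 0.48 for miR-451, 0.66 for miR-144-3p and 0.41 for miR-486-5p, which was also so for 16.5% of all miRNAs in this direction. In bulk lung RNA, fewer cells of a type and less of an RNA per cell cannot be told apart.

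All 3 differences lay close to the 2-fold limit, and their 95% confidence intervals ran from -1.47 to -0.62 for miR-451, from -1.496 to -0.62 for miR-144-3p and from -1.45 to -0.67 for miR-486-5p. Without OVA/OVA replicate 2, the lowest OVA/OVA array for each miRNA, the differences were -0.93, -0.99 and -0.99 in the order miR-451, miR-144-3p and miR-486-5p. Without OVA/OVA DEX replicate 1, the highest array for each, they were -0.95, -0.91 and -0.90. None was then called, because each fell short of 2-fold, although the adjusted p stayed between 0.00133 and 0.00495. Within slide 1 (2 OVA/OVA and 2 OVA/OVA DEX arrays) the differences were -1.38, -1.42 and -1.33. Within slide 2 (4 and 2 arrays) they were -0.85, -0.78 and -0.90. The groups did not overlap on either slide, which follows from the lack of overlap over all arrays and adds nothing to it.

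**Figure D2:**
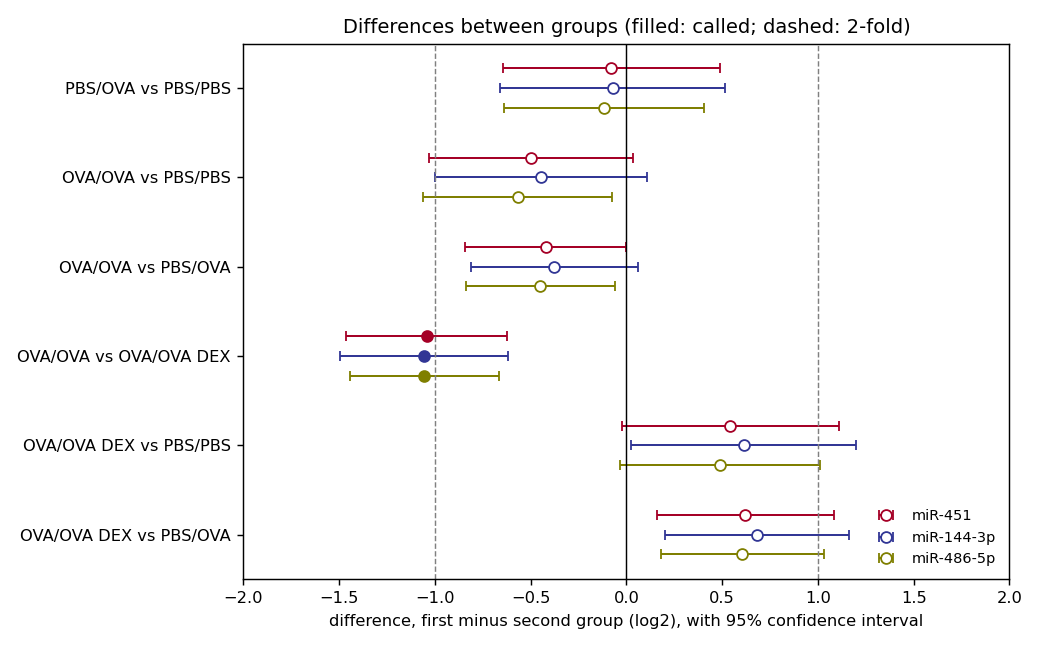
Differences of miR-451, miR-144-3p and miR-486-5p in the 6 comparisons between groups, as first minus second group on the log2 scale with 95% confidence intervals from limma. Filled points were called and dashed lines mark 2-fold. Only OVA/OVA vs OVA/OVA DEX has called values, from -1.06 to -1.04.

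OVA/OVA was set against PBS/PBS to find what changes in allergic lungs. The differences were -0.50 for miR-451 (SE 0.248, limma adjusted p = 0.142), -0.45 for miR-144-3p (SE 0.257, adjusted p = 0.197) and -0.57 for miR-486-5p (SE 0.229, adjusted p = 0.0798). None was called by limma, against 3.01% of all miRNAs called lower, and 1 of 3 (miR-486-5p) had an unadjusted p under 0.05, as did 41.4% of all miRNAs. The OVA/OVA arrays lay below both PBS/PBS arrays for each of the 3, which was also so for 25.6% of all miRNAs. The size of these differences changed with the scaling of the arrays. They were -1.60, -1.54 and -1.66 with no scaling and -1.24, -1.18 and -1.302 with scaling by control spots, all of them called, and -1.04, -0.98 and -1.10 with the percentile taken over all 611 miRNAs, where miR-451 and miR-486-5p were called. The median of all miRNAs tested moved as well, to -1.11, -0.75 and -0.56 under these settings, and relative to it the difference of miR-451 stayed at -0.48 in each.

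Sensitised and non-sensitised mice that were both challenged with OVA were compared in OVA/OVA vs PBS/OVA. Here the differences were -0.42 for miR-451 (SE 0.196, limma adjusted p = 0.111), -0.38 for miR-144-3p (SE 0.203, adjusted p = 0.167) and -0.45 for miR-486-5p (SE 0.181, adjusted p = 0.0718). None was called, against 1.88% of all miRNAs called lower, and 2 of 3 (miR-451 and miR-486-5p) had an unadjusted p under 0.05, as did 44.7% of all. The arrays overlapped because of PBS/OVA replicate 2. Without that array the differences were -0.62 for each, with adjusted p of 0.0146, 0.00891 and 0.0114, and still under 2-fold.

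OVA/OVA DEX was then compared with the groups that had no allergic disease. Against PBS/PBS it was higher by 0.54 for miR-451 (SE 0.263, limma adjusted p = 0.646), 0.61 for miR-144-3p (SE 0.273, adjusted p = 0.646) and 0.49 for miR-486-5p (SE 0.243, adjusted p = 0.661), and the sign turned with no scaling between arrays, to -0.26, -0.19 and -0.32. Relative to the median of all miRNAs, which was then -0.72, miR-451 was still at 0.45. None was called, and neither was any of the 266 miRNAs (0%). An unadjusted p under 0.05 was found for 1 of 3 (miR-144-3p) and for 6.77% of all. The OVA/OVA DEX arrays were above both PBS/PBS arrays for all 3, as for 18.8% of all miRNAs.

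Against PBS/OVA the differences of OVA/OVA DEX were 0.62 for miR-451 (SE 0.215), 0.68 for miR-144-3p (SE 0.223) and 0.61 for miR-486-5p (SE 0.199), each with a limma adjusted p of 0.131. None was called, as for all miRNAs in this direction (0%), while 3 of 3 had an unadjusted p under 0.05, against 22.2% of all. Arrays did not overlap for miR-451 and miR-144-3p, as for 7.89% of all miRNAs, and overlapped for miR-486-5p. Without PBS/OVA replicate 2 the differences fell to 0.43, 0.44 and 0.43. These 2 comparisons and that with OVA/OVA share the OVA/OVA DEX arrays and are not independent of each other.

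The effect of OVA challenge without sensitisation was read from PBS/OVA vs PBS/PBS. PBS/OVA differed from PBS/PBS by -0.08 for miR-451, -0.07 for miR-144-3p and -0.12 for miR-486-5p (limma adjusted p = 0.997 for each), with no call among the 3, 0.376% of all miRNAs called, and 0 of 3 with an unadjusted p under 0.05 against 4.14% of all. The 95% confidence interval of miR-144-3p, the widest of the 3, ran from -0.66 to 0.52, so that smaller changes in either direction were not detectable with these arrays. The sign turned without PBS/OVA replicate 2, to 0.12, 0.17 and 0.056.

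The 3 miRNAs varied together. Over the 16 arrays, Pearson's r was 0.961 between miR-451 and miR-144-3p, 0.955 between miR-451 and miR-486-5p and 0.954 between miR-144-3p and miR-486-5p. After group means were subtracted, r was 0.882, 0.853 and 0.867. These are descriptions over 16 arrays whose values share each array's scaling factor. Array by array, OVA/OVA replicate 2, PBS/OVA replicate 2 and OVA/OVA DEX replicate 1 held the lowest or the highest value of their group for each of the 3.

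The ratio of 2 miRNAs within an array does not change when an array is scaled by a factor. The log2 ratio of miR-451 to miR-144-3p differed between OVA/OVA and OVA/OVA DEX by 0.01 (exact two-sided permutation test, p = 0.933), that of miR-451 to miR-486-5p by 0.01 (exact permutation p = 0.943) and that of miR-144-3p to miR-486-5p by -0.003 (exact permutation p = 0.952). Adjusted over the 3 ratios, p was 0.952 for each, and the smallest p that 6 against 4 arrays allow is 0.00952. Within groups the ratios had an SD of 0.157, 0.166 and 0.164, compared to 0.316 for the signal of miR-451 itself. The differences of the ratios were smaller than this spread. With normexp background correction, which adds an offset that weighs more on dim signals, the differences of the ratios to miR-486-5p were -0.33 and -0.30, larger than the spread above (adjusted p = 0.229 for each, exact permutation test).

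**Figure D3:**
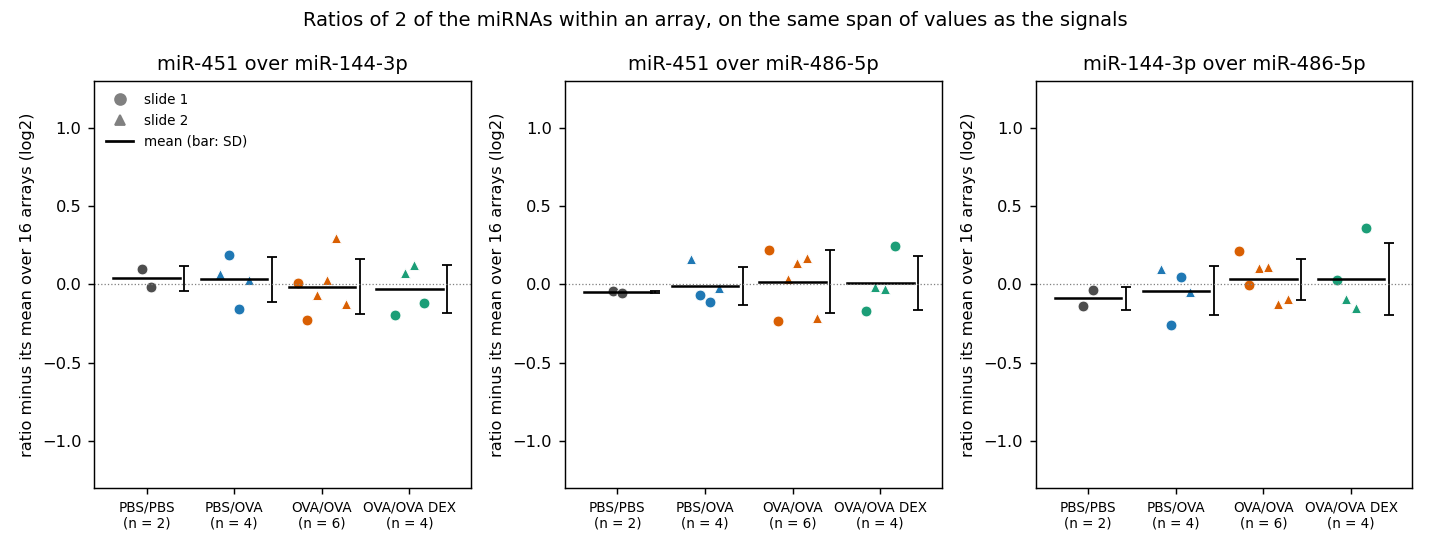
Log2 ratios of miR-451 to miR-144-3p, miR-451 to miR-486-5p and miR-144-3p to miR-486-5p within each array, each centred on its mean over the 16 arrays and drawn on axes with the same span as the signals. Points are arrays, markers slides, lines group means and bars the SD. The group means lie close together, and OVA/OVA differs from OVA/OVA DEX by at most 0.015.

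Each miRNA was measured by 2 probes with 10 spots each, and these gave separate readings of the same RNA. The probes of a miRNA differed in brightness by a near constant factor, with an SD over arrays of 0.0874 on the log2 scale for miR-451, 0.0512 for miR-144-3p and 0.0457 for miR-486-5p. Between OVA/OVA and OVA/OVA DEX the single probes differed by -1.03 and -1.04 for miR-451, by -1.05 and -1.04 for miR-144-3p and by -1.05 and -1.04 for miR-486-5p, and each of the 6 was called on its own. The spots of a probe varied by a median of 4.34% to 6.44% (coefficient of variation, median over arrays), and on single arrays by up to 52.7%, for a probe of miR-486-5p. This is the technical spread within an array and not that between samples. Feature Extraction flagged 5 to 12 of the 160 spots of a probe as outliers, and these were left out.

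MiR-451 made up a large part of the total signal of an array. Without allergic disease its share of the summed miRNA signal was 13.9% ± 0.67 (SD, n = 2) for PBS/PBS and 12.9% ± 2.62 (SD, n = 4) for PBS/OVA. The share was 9.58% ± 1.95 (SD, n = 6) for OVA/OVA mice, compared to 17.8% ± 1.42 (SD, n = 4) after dexamethasone. The shares of OVA/OVA, up to 11.7%, lay below those of OVA/OVA DEX, from 16.7%. A share depends on how strongly each probe binds and is not a share of molecules. With array brightness as a covariate the OVA/OVA vs OVA/OVA DEX difference of miR-451 was -0.95 and that of miR-144-3p -0.96, both not called, and that of miR-486-5p was -1.02. With brightness summed without the 3 miRNAs, an alternative chosen after the data had been seen, they were -0.996, -1.01 and -1.05, of which the first, short of 2-fold, was not called.

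Other miRNAs that are abundant in red cells differed less. Of 10 on a list for red cells (such as miR-16-5p, miR-15a-5p and miR-92a-3p, none of them exclusive to red cells), 8 could be tested. In the comparison with dexamethasone-treated mice, limma called 0 of the 8, against 3.38% of all miRNAs called lower and 9.4% called higher. At these shares, 0 calls among 8 miRNAs do not set the list apart. The median difference of the 8 was -0.03, compared to -0.09 over all miRNAs and -1.06 to -1.04 for miR-451, miR-144-3p and miR-486-5p. Their values ran from -0.23 to 0.22, and 1 of the 8, miR-210-3p, which was named after its value was seen, had an adjusted p under 0.05 (-0.23, SE 0.0762, adjusted p = 0.0212), against 32.3% of all miRNAs lower at that threshold without a 2-fold requirement. The summed scaled signal of the list ran from 29548 to 32007 for OVA/OVA, within its range of 25634 to 34956 for OVA/OVA DEX, so that the groups overlapped. MiR-191-5p was not detected on any array, and miR-363-3p on 2.

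Markers of other cells moved between the same groups. Of 5 leukocyte miRNAs, 1 was called higher in OVA/OVA than in OVA/OVA DEX, against 9.4% of all miRNAs called higher. This was miR-142-3p, which is specific to blood cells (1.05, SE 0.159, limma adjusted p = 0.000188), and 4 of 5 passed the adjusted p alone, against 21.1% of all miRNAs higher at that threshold. The summed scaled signal of the 5 ran from 32912 to 48381 for OVA/OVA, above its range of 18444 to 27194 for OVA/OVA DEX. This sum is weighted toward miR-142-3p, the brightest of the 5. Among 6 miRNAs that fall as red cells mature, 1 was called higher in OVA/OVA, miR-155-5p, also a miRNA of activated leukocytes (2.60, SE 0.269, limma adjusted p = 1.58e-05), and the median was 0.43. At the adjusted p alone 2 of the 6 were higher, miR-155-5p and miR-223-3p, and 1 was lower, miR-24-3p (-0.49, SE 0.128, limma adjusted p = 0.00763). MiR-223-3p and miR-150-5p are on this list and among the leukocyte miRNAs above, so that the lists are not independent.

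Striated muscle is the other known source of miR-486. Of 7 miRNAs on its list 4 were tested, and 0 were called between OVA/OVA and OVA/OVA DEX, against 3.38% of all miRNAs called lower. Their median was -0.84, and 3 of 4 were lower at an adjusted p under 0.05, against 32.3% of all. The summed scaled signal of the list ran from 663 to 2206 for OVA/OVA, overlapping its range of 1763 to 2949 for OVA/OVA DEX, and miR-206-3p and miR-499-5p were not detected on any array. Against PBS/PBS, 2 of the 4 were called lower in OVA/OVA, against 3.01% of all miRNAs, namely miR-133a-3p (-1.13, SE 0.322, limma adjusted p = 0.0226) and miR-133b-3p (-1.11, SE 0.344, adjusted p = 0.0324). MiR-486-5p was lower there too, by -0.57 (limma adjusted p = 0.0798), without a call. Whether it differed from the muscle miRNAs was not tested. The r values below are with the profile of all 3 miRNAs and not with miR-486-5p alone. Over the 16 arrays, r with the mean profile of the 3 miRNAs was 0.40 for miR-1a-3p, 0.534 for miR-133a-3p, 0.519 for miR-133b-3p and 0.830 for miR-208b-3p. After subtraction of group means it was -0.09, 0.051, -0.0039 and 0.528 in the same order.

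The arms of miR-126, a miRNA of endothelium, differed between OVA/OVA and OVA/OVA DEX by -0.30 and -0.88 and were not called, with 2 of 2 lower at the adjusted p alone, against 32.3% of all miRNAs. For smooth muscle (miR-143-3p and miR-145-5p) the differences were -0.31 and -0.45, with 0 called and 2 of 2 lower against the same share of all miRNAs. For 5 epithelial miRNAs of the miR-200 family the median was -0.09, with 0 called. At the adjusted p alone, 1 was higher, miR-200c-3p (0.25, limma adjusted p = 0.0143), and 1 was lower, miR-200a-3p (-0.27, adjusted p = 0.0139). Over the 16 arrays, r with the mean profile of the 3 was 0.847 for miR-126-3p and 0.918 for miR-126-5p. It was 0.821 for miR-143-3p, 0.648 for miR-145-5p and between -0.558 and 0.931 for the epithelial miRNAs. The highest r of the red cell list was 0.731. After subtraction of group means, r was 0.740 and 0.790 for miR-126, and 0.558 and 0.237 for smooth muscle. The part of leukocytes, muscle, endothelium and the blood content of the lung in the differences of miR-451, miR-144-3p and miR-486-5p was not tested.

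The miRNAs most like the mean profile of the 3 over the 16 arrays were sought among the other 263 tested. The 5 with the highest Pearson r were miR-30a-5p (0.966), miR-29c-3p (0.953), miR-23a-3p (0.953), miR-29c-5p (0.952) and miR-26a-5p (0.950). They had smaller differences between OVA/OVA and OVA/OVA DEX, from -0.59 to -0.48, and none was called. The lowest r were those of miR-449a-5p (-0.906), miR-721 (-0.873), miR-680 (-0.858), miR-135a-1-3p (-0.838) and miR-379-5p (-0.837). Their log2 differences between these groups lay between 1.11 and 3.90. Both sets were chosen for their likeness to a profile that is lowest in OVA/OVA and highest in OVA/OVA DEX, so that the direction of these differences follows from the choice.

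After group means were subtracted, the 5 most alike were miR-186-5p (0.916), miR-29c-5p (0.908), miR-30a-5p (0.883), miR-200a-3p (0.877) and miR-26a-5p (0.869). A high r was not rare, with 19 of 263 miRNAs over 0.9 and 37 over 0.8 across the 16 arrays, while the median r was 0.229. For the 8 red cell miRNAs tested, r over the 16 arrays lay between -0.213 and 0.731. After group means were subtracted, it lay between 0.243 for miR-22-3p and 0.817 for miR-15a-5p. The median over the other 263 miRNAs was then 0.206, so that a positive r was common. These values are descriptions, since all points share the same 16 arrays and their scaling. MiR-101a-3p, which shares bases 2 to 7 with miR-144-3p, differed between OVA/OVA and OVA/OVA DEX by -0.58 (SE 0.126, limma adjusted p = 0.00231) and was not called.

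**Figure D4:**
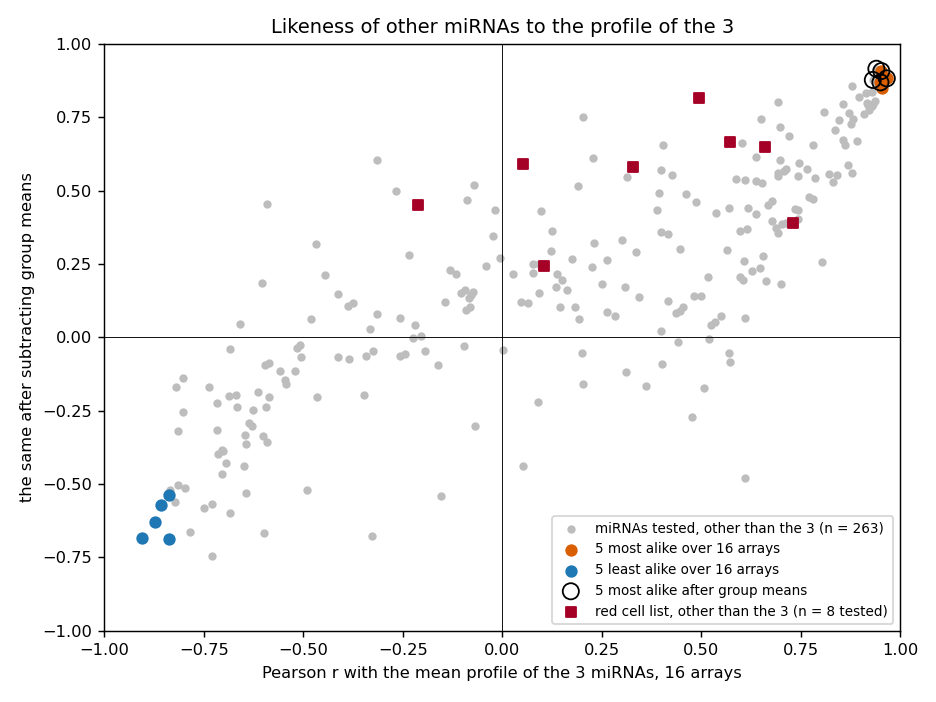
Pearson r of each of the other 263 miRNAs with the mean profile of miR-451, miR-144-3p and miR-486-5p, over 16 arrays (horizontal axis) and after subtraction of group means (vertical axis). The 5 most alike lie at 0.950 to 0.966 on the horizontal axis, and the red cell list (squares) lies between -0.213 and 0.731 on the horizontal axis and between 0.243 and 0.817 on the vertical axis.

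The OVA/OVA vs OVA/OVA DEX difference was also computed under other processing of the same arrays. It was negative for each of the 3 miRNAs under all 38 alternatives. Several of these, such as other floors and other sets of miRNAs tested, leave the difference itself unchanged. The sign could not turn in them, so that the number of alternatives is not a measure of support. Without scaling it was -1.33, -1.35 and -1.35 for miR-451, miR-144-3p and miR-486-5p, and with control spots -1.72, -1.74 and -1.74. The median of all miRNAs moved to -0.38 and -0.77 under these settings, and relative to it the differences stayed between -0.97 and -0.96. Quantile normalization, which gives all arrays one distribution, reduced them to -0.63, -0.71 and -1.02, and miR-451 then missed the adjusted p as well (0.0585). MiR-451 was among the brightest miRNAs, and this setting allows the brightest only a few fixed values. Under it no difference of miR-451 was left between OVA/OVA DEX and PBS/PBS, and OVA/OVA was at -0.63 against both. Normexp gave -1.07, -1.04 and -0.74, and miR-486-5p, short of 2-fold, was then not called. Values that the authors had processed gave -1.09, -1.10 and -1.06. Their rows were identified by likeness to the scanner signals, within 0.15, so that closeness to the values above is in part built in. The methods name an unpaired Mann-Whitney test. Run here in its exact form with Benjamini-Hochberg adjustment, it gave an adjusted p of 0.0309 for each.

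**Figure D5:**
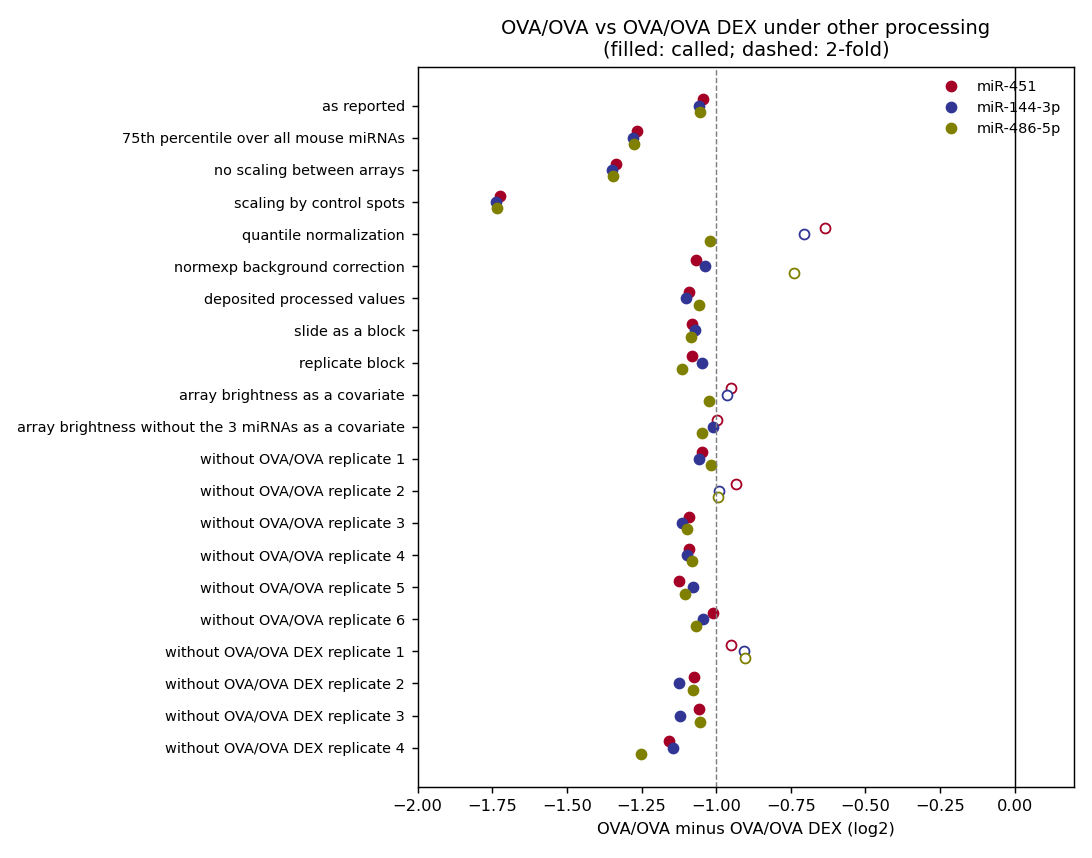
OVA/OVA minus OVA/OVA DEX on the log2 scale for miR-451, miR-144-3p and miR-486-5p under other scalings, background correction, covariates, blocks and with each OVA/OVA or OVA/OVA DEX array left out. Filled points were called and the dashed line marks 2-fold. Every value is below 0, from -1.74 with control spots to -0.63 for miR-451 with quantile normalization.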

How the data were processed

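Total RNA of whole lungs was hybridised to Agilent 1-colour miRNA arrays (16 arrays, 2 slides), and the deposited scanner files were made by the authors with Feature Extraction 10.7.3.1. Their processed signal, an intensity on a linear scale that the software had already corrected for background, was used. The authors also deposited a table of processed log2 values, made with GeneSpring GX per the methods, of which 151 of 672 rows could be matched to the scanner values within 0.15, and this table served as an alternative.

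Spots flagged as outliers were left out, spots were averaged per probe and probes summed per miRNA. Each array was scaled by the 75th percentile of the 206 miRNAs that all arrays detected, floored at 2.61 and taken to log2. A miRNA was tested if some group detected it on each of its arrays (266 of 611), with limma 3.58.1 in R 4.3.3, with 4 group means fitted on all 16 arrays and Benjamini-Hochberg adjustment over the 266 miRNAs. Called miRNAs had an adjusted p below 0.05 and a change of 2-fold or more. Within-array ratios were compared by an exact permutation test (scipy 1.17.1). In a simulation with independent noise for each miRNA, limma found 46 of 50 changed miRNAs among 266, with 0 false calls, for OVA/OVA vs OVA/OVA DEX. For OVA/OVA DEX vs PBS/PBS there was 1 false call. MiRNAs on the real arrays varied together, so that these numbers of false calls need not hold for them. In OVA/OVA vs OVA/OVA DEX the changed miRNAs of the simulation had a mean absolute log2 difference of 1.51. That is larger than the differences of the 3 miRNAs, so that this recovery does not apply to changes close to 2-fold. The alternatives were other scalings, normexp (offset 50), probe and miRNA filters, slide and replicate blocks, array brightness as a covariate, the Mann-Whitney test that the methods name (here exact, with Benjamini-Hochberg adjustment), and each array left out.

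The 3 miRNAs and the marker lists were chosen with earlier results of these data known. Named besides them were the 5 miRNAs most and the 5 least like their mean profile, and list members. The number of arrays limits the precision, and probe signals carry no counts or depth. The sequence of miR-486-5p is not reported here.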

Additional observations from a re-analysis of the deposited data

How the results depend on the processing

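With 38 alternatives, several of which leave this difference unchanged, the OVA/OVA vs OVA/OVA DEX difference kept its sign for all 3 miRNAs. The limma or Mann-Whitney adjusted p ran from 9.46e-05 to 0.0585, the latter for miR-451 with quantile normalization. The number called fell from 3 to 1 with quantile normalization and to 1 with array brightness as a covariate, was 2 with normexp (without miR-486-5p, at -0.74) and 2 with brightness without the 3 miRNAs (without miR-451, at -0.996), and lay between 0 and 3 with each array left out (0 without OVA/OVA replicate 2 or without OVA/OVA DEX replicate 1). Of the 3, 2 were called in OVA/OVA vs PBS/PBS with the percentile over all miRNAs, 3 with no scaling and 3 with control spots, and 3 in OVA/OVA vs PBS/OVA with control spots (-1.09, -1.05 and -1.12). In the other comparisons 0 were called under any of the 38.

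Signs turned only where differences were not called. PBS/OVA vs PBS/PBS was 0.039 for miR-451 and 0.048 for miR-144-3p with brightness as a covariate, and 0.013 and 0.021 with brightness without the 3 miRNAs. With each array left out it ran from -0.17 to 0.12 for miR-451, from -0.22 to 0.17 for miR-144-3p and from -0.24 to 0.056 for miR-486-5p. OVA/OVA DEX vs PBS/PBS with no scaling was -0.26, -0.19 and -0.32. The ratio of miR-451 to miR-144-3p was -0.029 with normexp and -0.066 within slide 2 (-0.047 to 0.065 with each array left out), that of miR-451 to miR-486-5p was -0.33 with normexp and -0.044 within slide 1 (-0.047 to 0.091), and that of miR-144-3p to miR-486-5p was 0.12 within slide 2 (-0.066 to 0.11). The causes were not tested.

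With the replicate block the OVA/OVA vs OVA/OVA DEX differences were -1.08, -1.05 and -1.11 and 3 were called. Deviations of same-numbered samples correlated at -0.793 to 0.403 over 18 pairs, of which 3 were over 0.1. With so few arrays per group, these correlations cannot settle whether same-numbered samples share more than a number.

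Over all miRNAs, 34 were called in OVA/OVA vs OVA/OVA DEX (25 higher, 9 lower), against 77 with control spots (10 higher, 67 lower), 18 and 18 with the percentile of all 611 miRNAs, 13 and 10 with no scaling, 17 and 13 with quantile normalization, 7 with normexp, 19 when only the 206 miRNAs detected on all arrays were tested, 12 of 151 with the deposited values and 142 without the 2-fold requirement. PBS/PBS had 2 arrays, on 1 slide, so that its spread is poorly known.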
